A study of Homo sapiens with 12 samples.

Results

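The genes described here are the cell adhesion genes of 4 families, chosen by symbol: the cadherins in the wide sense (CDH, FAT, desmocollins DSC, desmogleins DSG and protocadherins PCDH), the catenins (CTNN), the claudins (CLDN) and genes whose symbol starts with ITGA or ITGB. Symbols with a hyphen were left out, and where a gene had more than 1 transcript cluster (a unit of the array whose probes are read as 1 value) the cluster of highest mean signal across the 12 arrays stood for it. The rule found 72 genes of the 14884 genes named on the array, 69 of them protein-coding and 3 pseudogenes. The label of this set as cadherins, claudins and integrins holds only in part. No named cluster was a catenin or an integrin alpha or beta subunit, and the CDH genes were 2, CDH23 and CDH26. CDH1, CDH2, CTNNA1, CTNNB1, CTNND1, ITGB1 and ITGAV, 7 core genes of cell adhesion, were not analysed here.

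Cells of HEK293, a human embryonic kidney line transformed with adenovirus DNA, received RNA at 5 nM with the HiPerfect reagent. In 6 samples this was Syn-hsa-miR-1825, which mimics the microRNA miR-1825, and in 6 it was the AllStars Negative Control siRNA. Total RNA was taken 24 h later and hybridised to Human Gene 2.0 ST arrays, 1 array per sample. Both groups were transfected, 1 cell line was used, and the labels do not say if replicates were grown separately. The spread behind each p-value may thus be technical only.

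Cadherins are membrane proteins that bind their like on the next cell through calcium-dependent extracellular repeats. Desmosomal cadherins form patches that plakoglobin, plakophilins and desmoplakin tie to keratin filaments, FAT cadherins are giant members linked to cell polarity and growth control, and protocadherins are best known for recognition between neurons. Claudins are the 4-pass membrane proteins that form the seal and the ion pores of tight junctions between epithelial cells. A microRNA lowers mRNAs that pair with its seed, bases 2 to 8 from its 5′ end.

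The sequences of the mimicked microRNA and of its nearest relative by seed among the names searched are shown. The seed sets which mRNAs a mimic can bind. Bases 2 to 8 are in capitals.
hsa-miR-1825: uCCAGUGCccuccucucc
hsa-miR-199a-5p: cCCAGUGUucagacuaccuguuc
Both are mature sequences from the RefSeq table for GRCh38.p14, where miR-1825 has 18 bases and lies on the plus strand at chr20:32237830-32237847. Among the 2370 mature microRNA names of that table, no other shared bases 2 to 8 with miR-1825, and only miR-199a-5p shared bases 2 to 7. MicroRNAs without a name there were not compared. Sites for the seed in the transcripts of the 72 genes were not analysed here.

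Arrays correlated with each other at a mean of 0.992 within groups and 0.991 between groups. Of 5 markers of the HEK293 line, 3 read at or above the median of all cluster means (called the array-wide median here, 4.48 on the log2 scale), among them VIM at 8.05, and SOX11 at 3.81 and PAX8 at 4.42 read below it. Of 7 epithelial markers, 5 read at or above that median, among them KRT18 (9.68), EPCAM (7.95) and ESRP2 (5.45). GRHL2 (3.90) and ESRP1 (3.33), both regulators of epithelial identity, were below it. Of the markers of other cell types, 2 of 3 fibroblast, 2 of 4 leukocyte and 2 of 5 endothelial genes were at or above it. No marker passed the limma threshold.

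Signal differed widely within every family of more than 3 genes. Of the 72 genes, 34 read at or above the array-wide median and 13 were among the brightest 25% of clusters. Those 13 were the desmosomal cadherins DSG2, DSC3 and DSC2, the protocadherins PCDH17, PCDH10, PCDH7, PCDH9 and PCDH18, the FAT cadherins FAT1 and FAT4, the claudin CLDN3, and the ITGB-named genes ITGB1BP1 and ITGB3BP. Signals of different clusters depend on their probes, so they are set against the whole array and not ranked against each other. The background of the array was not known, so a low reading does not show that a gene was silent.

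**Figure D1:**
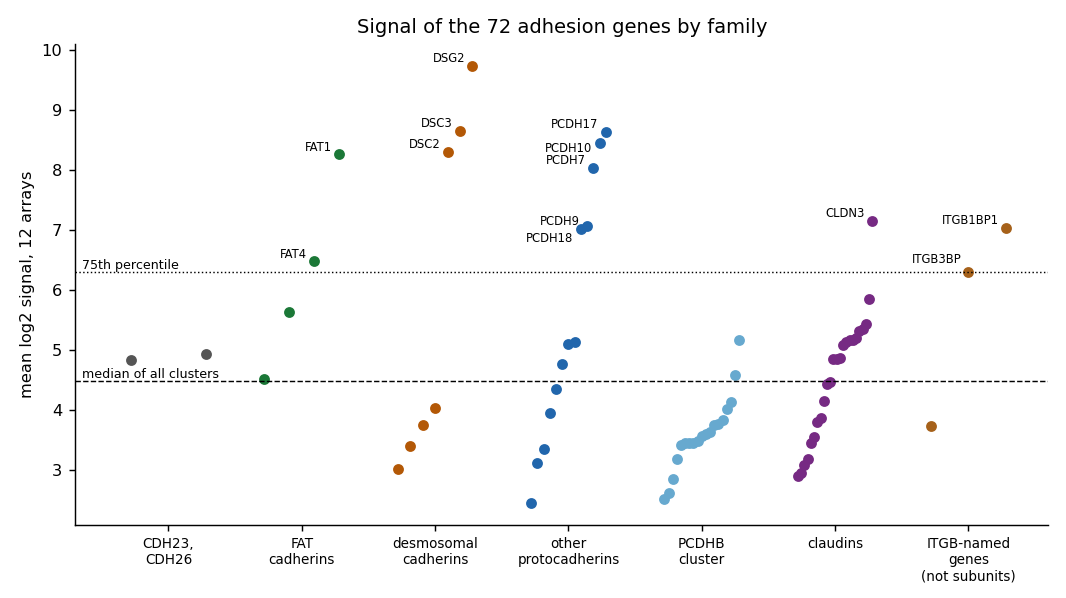
Mean log2 signal over 12 arrays (vertical axis) for each of the 72 genes, 1 point a gene, by family; the dashed and dotted lines mark the median and the 75th percentile of all cluster means, 4.48 and 6.29. The 13 named points lie above the dotted line, and 17 of the 19 PCDHB genes lie below the dashed one.

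After the mimic, 0 of the 72 genes passed the limma test (adjusted over all 53617 clusters at 0.05), in either direction, where 0.0112% of all clusters did. At an unadjusted p under 0.05 there were 10 genes, 3 higher and 7 lower after the mimic. The 3 higher ones were 4.17% of the 72, against 6.69% among all named genes, and the 7 lower ones 9.72%, against 4.19%. These shares are not matched for signal. All 3 higher genes were in the brightest 25% of clusters, as 23.1% of the 13 genes there, against 11.04% of named genes. At or above the array-wide median the higher share was 8.82%, against 8.36%, and below it 0%, against 2.41%. The lower shares, in the same order, were 7.69%, 8.82% and 10.5%, against 3.02%, 3.77% and 5.26%. Means were higher after the mimic in 28 genes and lower in 44, with a median log2 difference of -0.02, while 50.1% of all named genes had higher means and their median was 0.0002. Among the 34 brighter genes 12 had higher means (35.3%), against 54.6% of all named genes at or above that limit, and among the 38 dimmer ones 16 (42.1%), against 38.6%. The share with higher means was 59.9% among named genes of the brightest 25%, to which 6432 of 10698 of that comparison set belong but only 13 of the 34. In those 13 genes 6 means were higher (46.2%). The 2 named by earlier results on these arrays, FAT1 and CLDN7, are among the 7 lower genes.

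The differences in signal that 12 arrays leave possible were small. Among the 34 genes at or above the array-wide median, the 95% interval of the log2 difference lay within a 1.5-fold change either way in 34, as it did in 99.3% of the named genes above that limit. Its outer bound ranged from 1.08-fold in PCDH10 to 1.32-fold in CLDN7 and was at most 1.21-fold in the 13 genes of the brightest 25%. The signal intervals of the 38 dimmer genes also lay within 1.5-fold. With the background not known, these intervals bound the change in signal but not in mRNA, for dimmer and brighter genes. The 3 genes with a higher mean at an unadjusted p under 0.05 (DSC2, PCDH9 and ITGB3BP) were 0 without control replicate 6 and 1 without control replicate 2 or mimic replicate 2. The 7 lower ones were 6 to 8 without any single array.

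**Figure D2:**
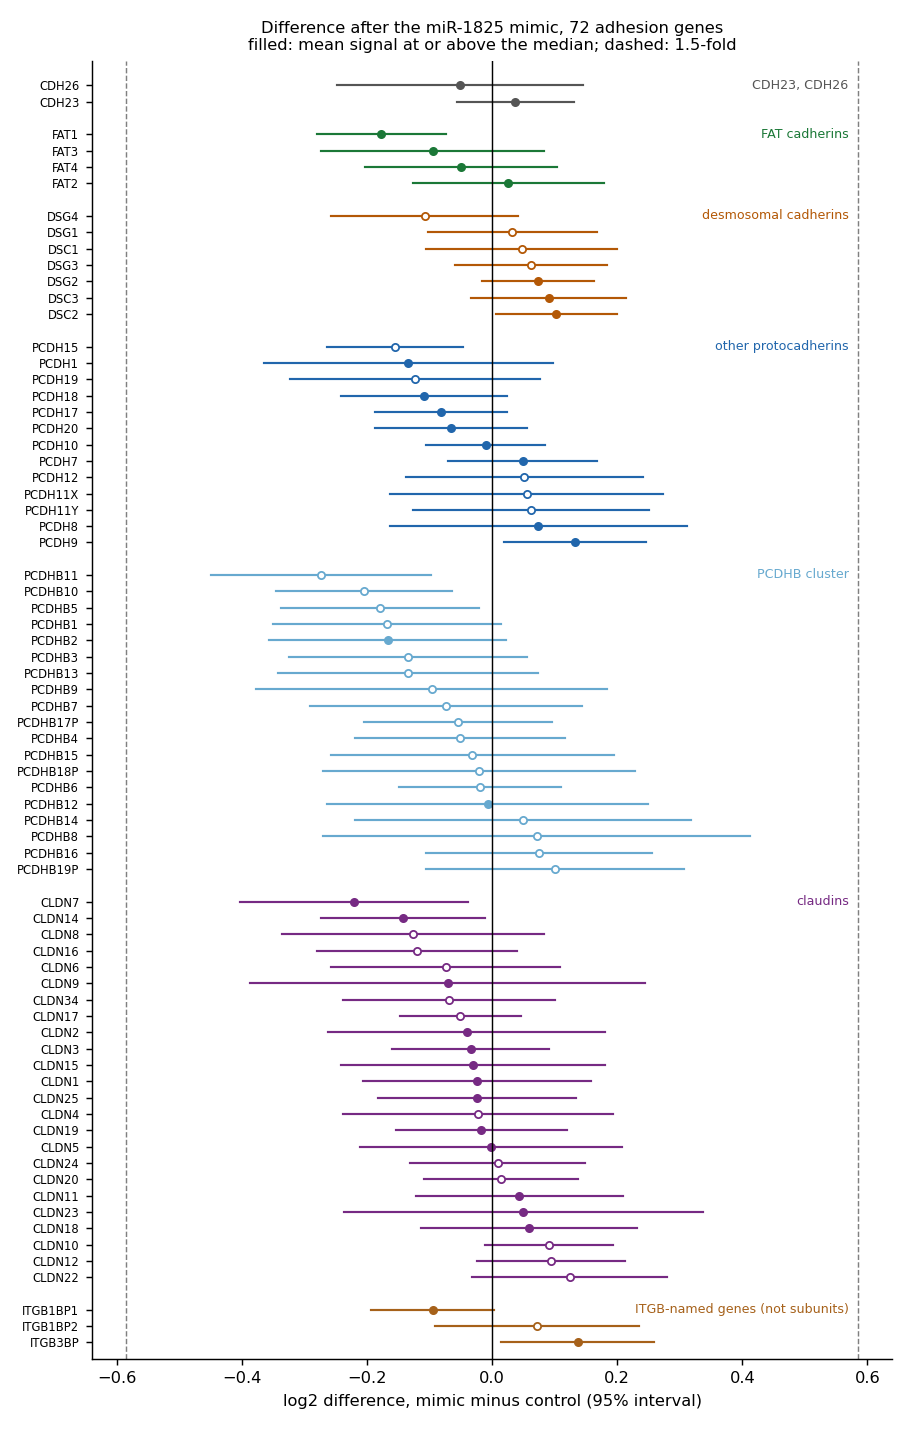
Log2 difference, mimic minus control (horizontal axis), with its 95% interval from limma for each of the 72 genes, grouped by family; filled points have a mean signal at or above the array-wide median, and dashed lines mark 1.5-fold. All 72 intervals lie between the dashed lines, and 10 of them exclude 0.

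FAT1, the atypical cadherin best known for limiting cell growth and shaping actin at cell contacts, was the gene with the smallest p of the 72. Its log2 signal ran from 8.24 to 8.44 in controls, with a median of 8.36, and from 8.07 to 8.23 after the mimic, with a median of 8.17. The groups did not overlap: every mimic array lay below every control. Genes with all mimic arrays below all controls made up 0.403% of named genes and were 3 of the 72 (FAT1, PCDHB5 and PCDH15), and 1.34% of named genes had all mimic arrays above all controls, against 0 of the 72. The mean of FAT1 went from 8.35 ± 0.07 to 8.17 ± 0.06 (SD, n = 6), a log2 difference of -0.18 with a 95% interval from -0.28 to -0.07, or 0.884-fold. Its limma adjusted p was 0.245 over all clusters.

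FAT1 passed only where the test was limited to the brightest 25% of clusters, where 1.81% of clusters passed (limma adjusted p = 0.0456). That call was lost when any one array other than control replicate 5 was left out. Over the 12 such fits the limma adjusted p ran from 0.0355 to 0.0923 and the log2 difference from -0.20 to -0.16. It was 0.0704 with arrays centred on their medians, 0.0326 after quantile normalization and 0.111 with the replicate number as a block. The sign of the difference was the same in all these fits.

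The other FAT genes did not pass. FAT4, which pairs with the cadherin DCHS1 in planar polarity, ran from 6.34 to 6.67 in controls (median 6.5) and from 6.26 to 6.61 after the mimic (median 6.46). Its groups overlapped almost fully, and its log2 difference was -0.05 (interval from -0.20 to 0.10). FAT3, a neuronal member, had -0.10 (interval from -0.27 to 0.08) and FAT2, an epidermal and cerebellar member, had 0.03 (interval from -0.13 to 0.18). FAT2 read close to the median of all clusters. DCHS1 itself had a log2 difference of -0.02 and FJX1, a relative of the fly kinase that modifies these cadherins, of -0.01.

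Among the desmosomal cadherins 3 of 7 genes were bright in HEK293, and all 3 had higher means after the mimic, as did 59.9% of the named genes in the brightest 25% of clusters. DSG2, the desmoglein of simple epithelia and heart, ran from 9.63 to 9.74 in controls (median 9.70) and from 9.66 to 9.81 after the mimic (median 9.78). DSC2, its usual desmocollin partner, ran from 8.17 to 8.30 in controls (median 8.26) and from 8.28 to 8.46 after the mimic (median 8.33). DSC3, a desmocollin of stratified epithelia, ran from 8.42 to 8.69 in controls (median 8.65) and from 8.58 to 8.78 after the mimic (median 8.71). The groups overlapped in each of the 3, by the least in DSC2, where all 6 mimic arrays lay above the control mean.

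The log2 differences were 0.10 for DSC2 (interval from 0.01 to 0.20), 0.09 for DSC3 (interval from -0.03 to 0.21) and 0.07 for DSG2 (interval from -0.02 to 0.16), or 1.07-fold, 1.06-fold and 1.05-fold. None passed (limma adjusted p of 0.443, 0.61 and 0.556). The other 4, which read below the median of all clusters, were DSC1, DSG1 and DSG3, with log2 differences of 0.05, 0.03 and 0.06, and DSG4, a hair follicle desmoglein, with -0.11. The intervals of these 4 all included 0. Over the 7 genes, 6 had higher means, or 85.7%. That share was 50.1% among all named genes and 38.6% among those below the array-wide median. The median log2 difference of the 7 genes was 0.06, the highest among the families of more than 3 genes. That median was 0.07 after quantile normalization and 0.08 with arrays centred on their medians. The cytoplasmic proteins of the same junction are encoded by DSP (desmoplakin), JUP (plakoglobin) and the plakophilin genes. The log2 differences of DSP, JUP, PKP2 and PKP4, all in the brightest 25% of clusters, were -0.03, -0.04, 0.02 and 0.05. PKP3, at a signal of 5.86, had -0.19 (unadjusted p of 0.0428 with limma), and PKP1, below the array-wide median, had -0.10.

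**Figure D3:**
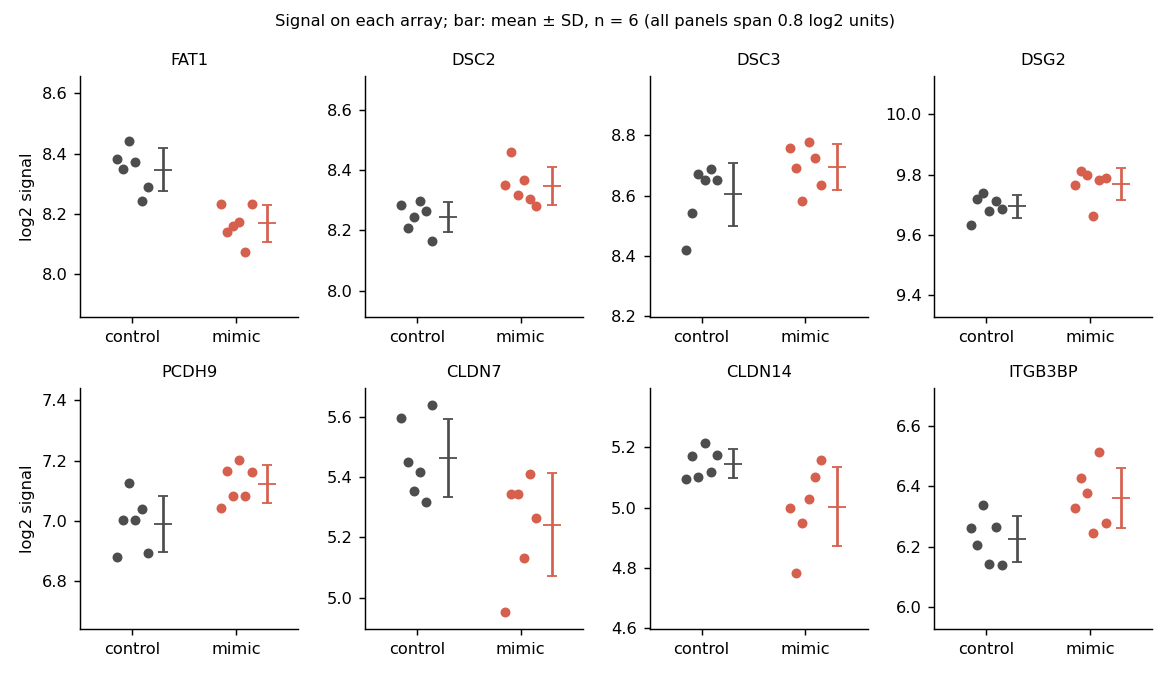
Log2 signal on each of the 6 control and 6 mimic arrays (1 point an array) for 8 genes, with mean ± SD as the bar; every vertical axis spans 0.8 log2 units. FAT1 is the panel in which no mimic point reaches a control point; the differences in DSC2, DSC3 and DSG2 are smaller.

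Protocadherins outside the gene clusters were split, with 6 of 13 means higher and 7 lower and a median log2 difference of -0.01, which turned to 0.005 with arrays centred on their medians and to 0.0009 and 0.01 without control replicate 4 and mimic replicate 1. PCDH9, a delta-1 protocadherin of the nervous system, ran from 6.88 to 7.12 in controls (median 7.0) and from 7.04 to 7.20 after the mimic (median 7.12). All 6 mimic arrays lay above the control mean although the groups overlapped. The log2 difference was 0.13 (interval from 0.02 to 0.25), 1.10-fold, with a limma adjusted p of 0.398. PCDH9 is 1 of the 2 genes with a second cluster, and that cluster, near the floor of the scale at 2.48, had a log2 difference of 0.005.

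PCDH18 and PCDH17 lay on the other side. PCDH18, a delta-2 protocadherin, ran from 6.87 to 7.21 in controls (median 7.07) and from 6.83 to 7.04 after the mimic (median 6.97), a log2 difference of -0.11 (interval from -0.24 to 0.02). PCDH17, a delta-2 protocadherin that acts at synapses and in axon growth, had a log2 difference of -0.08 (interval from -0.19 to 0.02), and its second cluster had -0.03. In both genes all 6 mimic arrays lay below the control mean, with overlap between the groups. PCDH10 and PCDH7 were also in the brightest 25% of clusters. PCDH10 had -0.01 (interval from -0.11 to 0.09), with its sign turned by median centring (0.005), and PCDH7 had 0.05 (interval from -0.07 to 0.17). For PCDH10 a change in signal beyond 1.08-fold lies outside the interval.

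Among dim protocadherins outside the gene clusters, only PCDH15 had an unadjusted p under 0.05 with limma. No fold is given at such signals, since the background was not known. PCDH15, the tip-link protein of inner ear hair cells, ran from 3.34 to 3.50 in controls (median 3.41) and from 3.10 to 3.32 after the mimic (median 3.30), and the groups did not overlap. Its log2 difference was -0.16 (SE 0.05, limma adjusted p = 0.308). PCDH1, which read 5.10 and is an airway and skin protocadherin, had -0.13 with a wide interval, from -0.37 to 0.10. Without control replicate 2 or mimic replicate 2 it was -0.07 or -0.08. CDH23, the partner of PCDH15 in the tip link, read 4.93 and had 0.04 (interval from -0.06 to 0.13), and CDH26 had -0.05.

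The PCDHB genes are neighbours of 1 gene cluster, each with a large exon of its own, and neurons use them in combinations as an identity code. All 19 clustered protocadherins named here were PCDHB genes, 16 of them protein-coding and 3 pseudogenes, and 0 were PCDHA or PCDHG. Only PCDHB2 (5.16) and PCDHB12 (4.57) read at or above the array-wide median. Means were lower after the mimic in 15 of 19 and higher in 4, with a median log2 difference of -0.05. After quantile normalization the counts were 13 and 6, and the median was -0.03. The median was also -0.03 without mimic replicate 6, and -0.09 and -0.08 without mimic replicate 2 and control replicate 5. Of the 17 dim ones 23.5% had higher means, against 38.6% of all named genes below the median. The proteins and transcripts of this cluster are closely similar, so probes may read more than 1 gene, and the 19 values are not independent of each other.

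At an unadjusted p under 0.05 there were 3 PCDHB genes, all lower, or 17.6% of the 17 dim ones, against 5.26% of all dim named genes. PCDHB11 ran from 3.42 to 3.78 in controls (median 3.68) and from 3.18 to 3.57 after the mimic (median 3.33). Its log2 difference was -0.27 (SE 0.08, limma adjusted p = 0.277), the largest in size of the 72. PCDHB10, its neighbour, had -0.20 (SE 0.07, limma adjusted p = 0.301) and PCDHB5 had -0.18 (SE 0.07, limma adjusted p = 0.415). In these 3 genes all 6 mimic arrays lay below the control mean, and in PCDHB5 below every control. That separation was very narrow, with the highest mimic array at 3.1626 and the lowest control at 3.1685. PCDHB2 ran from 5.02 to 5.47 in controls (median 5.21) and from 4.86 to 5.30 after the mimic (median 5.07). Its log2 difference was -0.17 with an interval from -0.36 to 0.02, and the control mean was above 5 of 6 mimic arrays. Not all differences along the cluster had the same sign: PCDHB8 and PCDHB16, 2 neighbours in the middle, had 0.07 each. PCDHB19P, a pseudogene near the end, had 0.10. Their intervals, from -0.27 to 0.41, from -0.11 to 0.26 and from -0.11 to 0.31, included 0. An uneven run along the cluster was thus not shown.

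**Figure D4:**
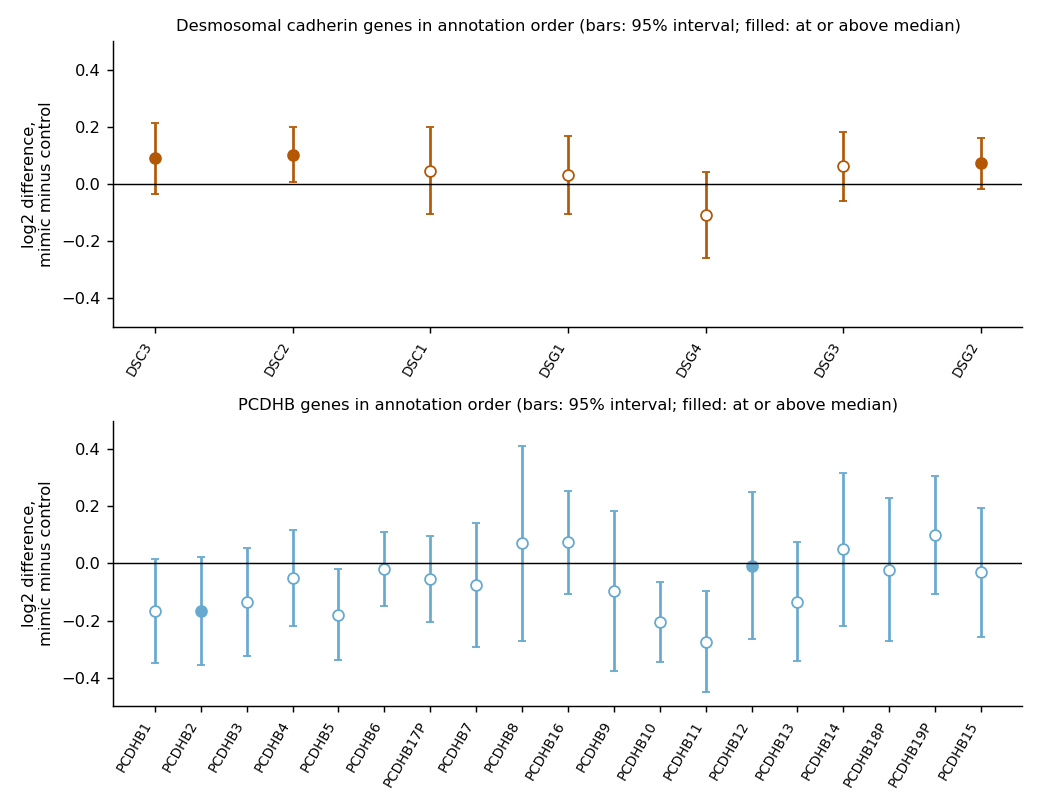
Log2 difference, mimic minus control (vertical axis), with 95% intervals for the 7 desmosomal cadherin genes (upper panel) and the 19 PCDHB genes (lower panel) in their order in the RefSeq annotation, not to distance; filled points read at or above the array-wide median. The 3 filled desmosomal points lie above 0, and 15 of the 19 PCDHB points lie below it.

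No claudin passed the threshold. Of 24, 16 had lower means and 8 higher (33.3%, against 50.1% of all named genes), with a median log2 difference of -0.02. That median was -0.009 with arrays centred on their medians and -0.007, -0.01 and -0.01 without control replicate 6, mimic replicate 2 and control replicate 3. It was -0.04 without control replicate 4 or 5 or mimic replicate 5. Of the 24, 13 read at or above the array-wide median, of which 3 had higher means (23.1%). Among named genes the share with higher means was 54.6% at or above that median and 38.6% below it. The 50.1% is thus not matched to the claudins for signal. Of the 10698 named genes at or above that median, 6432 were in the brightest 25% of clusters. CLDN3, a barrier-forming claudin of kidney tubules and gut, was the 1 claudin among the brightest 25% of clusters. It ran from 6.99 to 7.30 in controls (median 7.19) and from 7.07 to 7.19 after the mimic (median 7.13). The mimic arrays fell inside the range of the controls, and the log2 difference was -0.03 (interval from -0.16 to 0.09).

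CLDN7, a claudin of the collecting duct and of epithelial basolateral membranes, had the largest difference of the claudins. It ran from 5.32 to 5.64 in controls (median 5.43) and from 4.95 to 5.41 after the mimic (median 5.30). All 6 mimic arrays lay below the control mean, and the groups overlapped. The log2 difference was -0.22 with an interval from -0.40 to -0.04, or 0.858-fold (limma adjusted p = 0.379). CLDN14, a claudin of the cochlea and of the kidney's calcium-handling segment, ran from 5.10 to 5.21 in controls (median 5.15) and from 4.78 to 5.16 after the mimic (median 5.01). Its log2 difference was -0.14 (interval from -0.27 to -0.01, limma adjusted p = 0.431), with the control mean above 5 of 6 mimic arrays. Neither was bright enough to enter the test of the brightest 25% of clusters. The highest claudin difference was 0.12 in CLDN22, at a signal of 3.08, and CLDN22 and CLDN24 are closely similar neighbours whose probes may be shared.

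Markers of epithelial cells stood beside the claudins. Of 7 named markers, 1 had a higher mean after the mimic (14.3%, against 50.1% of all named genes) and 0 passed the threshold. At an unadjusted p under 0.05 there was 1, lower (14.3%, against 4.19% of named genes). It was KRT18, with a log2 difference of -0.10. These shares of named genes are not matched for signal, since 5 of the 7 markers read at or above the array-wide median. Their summed log2 signal ran from 41.9 to 43.2 on control arrays and from 41.3 to 42.4 on mimic arrays, so the groups overlapped. Their part in the claudin values was not tested. All arrays came from 1 cell line. In bulk RNA, fewer cells with a transcript and less of it per cell cannot be told apart.

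The 3 ITGB-named genes are not integrin subunits. ITGB3BP, also known as the centromere protein CENP-R, ran from 6.14 to 6.34 in controls (median 6.23) and from 6.25 to 6.51 after the mimic (median 6.35). All 6 mimic arrays lay above the control mean, with overlap, and the log2 difference was 0.14 (interval from 0.01 to 0.26), or 1.10-fold, the highest of the 72 (limma adjusted p = 0.418). ITGB1BP1, which binds the tail of the beta-1 integrin subunit and restrains it, ran from 6.97 to 7.16 in controls (median 7.10) and from 6.93 to 7.06 after the mimic (median 6.98). Its log2 difference was -0.09 (interval from -0.19 to 0.004), on the other side of 0 from ITGB3BP. ITGB1BP2, the muscle protein melusin, was dim at 3.73 and had 0.07.

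Partner genes from lists outside the rule were read from the same test. Of 57 genes (junction plaque and tight junction proteins, focal adhesion proteins, matrix ligands and other cadherin-superfamily genes), 0 passed the limma threshold, 23 had higher and 34 lower means, and 5 had an unadjusted p under 0.05, all lower. These were 8.77% of the 57, against 4.19% lower at that limit among all named genes. The 23 with higher means were 40.4%, against 50.1%. Neither share of named genes is matched for signal, since 50 of the 57 read at or above the array-wide median. Of the named genes there, 54.6% had higher means and 3.77% were lower at an unadjusted p under 0.05. The 5 were PKP3, a plakophilin (log2 difference -0.19), CDHR2, a brush-border cadherin (-0.18), VTN, the matrix protein vitronectin (-0.15), NID1, the basement membrane protein nidogen (-0.10), and TLN1, the talin that links integrins to actin (-0.09). This count was unstable. It was 1 without control replicate 1 or 2 or mimic replicate 4, 2 without control replicate 3, 4 or 5 or mimic replicate 1 or 2, 3 without mimic replicate 5, and 1 with arrays centred on their medians. Means were higher in 1 of 8 matrix ligands (12.5%) and in 2 of 11 other cadherin-superfamily genes (18.2%), with medians of -0.07 and -0.03. They were higher in 13 of 21 junction plaque and tight junction genes (61.9%) and in 7 of 17 focal adhesion genes (41.2%). The medians of these 2 lists were 0.02 and -0.01. Among tight junction genes the log2 difference was 0.04 in TJP1, the scaffold ZO-1, and in OCLN, occludin, 0.11 in CGN, cingulin, and -0.09 in MARVELD3.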

How the data were processed

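The authors deposited log2 expression values, 1 per transcript cluster and array, and per the submitters' processing notes the tool was Affymetrix Expression Console. Neither its version nor its settings for background, normalization or summarisation were found in the labels used. The log2 scale was read from the values (1.62 to 14.4; array medians 4.44 to 4.51). Values were used as deposited. Of 53617 clusters, 16098 had 1 gene symbol, 0 several and 37519 were unnamed here. Symbols came from the platform annotation; identifiers of all 16098 matched RefSeq.

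Mimic and control were compared with limma 3.58.1 in R 4.3.3 (lmFit, eBayes, no trend, no block, two-sided), with Benjamini-Hochberg adjustment over all clusters at 0.05; intervals are 95% intervals of that fit. The fit was tested on simulated data. Gene families are described by counts and medians. The number of arrays limits the precision.

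Genes named were FAT1, CLDN7, the 7 core genes, up to 3 genes per family with the smallest unadjusted p under 0.05, and the 8 largest differences at or above the median signal; others were named as ends of a range, as family members or as partners. Members and lists were chosen with earlier results of these data known.

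Alternatives were other normalizations, a trend and robust prior, filters on dim clusters, 1 cluster per gene, the mean over a gene's clusters, a replicate block, leaving out each array, and an exact permutation test.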

Additional observations from a re-analysis of the deposited data

Results flagged for a closer look

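In 26 groups of 6 arrays (13 genes in both treatment groups), 2 had an extreme array set off by a wide gap from the other 5; chance alone sets off about 1 group in 20. For PCDHB5, mimic replicate 1 was the lowest mimic array at 2.87, against 3.09 to 3.16 in the other 5. For PCDH15, mimic replicate 3 was the lowest at 3.10, against 3.28 to 3.32. Both genes read below every array median.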

How the results depend on the processing

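The 13 genes named by the rule kept their sign in 182 of 182 values. These came from the 2 scalings and the 12 fits without single arrays. Most of the 13 were named for a small p or a large difference on these same arrays, so a kept sign was likely beforehand. Among the other members, CLDN5, PCDHB6, PCDHB12 and PCDH10 changed sign over the scalings. The other alternatives leave most differences as they are. Of the 13 genes FAT1 alone passed the threshold, and only in fits of the brightest 25% of clusters (1 member called). There FAT1 also passed after quantile normalization, with a trend and robust prior and without control replicate 5. In the other settings 0 members were called. Calls over all 53617 clusters, 6 as deposited, were 39 with a trend and robust prior, 13 at or above the median, 24 in the brightest 40%, 242 in the brightest 25% and 0 with 1 cluster per named gene; they ranged from 0 to 6 without single arrays, and were 0 or 2 without any one array other than control replicate 5 or 6. Members at an unadjusted p under 0.05, 10 as deposited, were 6 in the brightest 25% and in the brightest 40%, where fewer members were tested, and 7 to 11 without single arrays. The members' median log2 difference, -0.02 as deposited, was -0.01 without control replicate 6, -0.0092 with arrays centred on their medians and -0.01 in the brightest 25%. The FAT median, -0.07 as deposited, ran from -0.11 to -0.04 without single arrays, and that of the ITGB-named genes, 0.07 as deposited, from 0.04 to 0.12. In the brightest 40% the median was -0.17 for the PCDHB genes, of which only PCDHB2 was left, and -0.066 for the other protocadherins. Partner genes at an unadjusted p under 0.05, 5 as deposited, were 1 with arrays centred on their medians, 2 in the brightest 25%, and 1 to 6 without single arrays. Fits on partner genes and refits of the brightest 25% were chosen after seeing the data. In the exact permutation test, the smallest possible p is 0.00216, which FAT1, PCDHB5 and PCDH15 reached. Any gene whose groups do not overlap reaches it, so this p only restates the separation of these genes. Among named genes, 0.403% had all mimic arrays below all controls and 1.34% had all mimic arrays above all controls.

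Both groups use the replicate numbers 1 to 6. Same-numbered arrays deviated from their group means with correlations between -0.11 and 0.08, so no deviation shared by number was seen. Whether same-numbered samples were handled together is not said in the labels. With a replicate block 0 clusters passed, 7 members and 2 partner genes had an unadjusted p under 0.05, and 0 control arrays correlated best with the mimic array of their own number.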
